A study of Rattus norvegicus with 16 samples.

Results

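Oxidative phosphorylation was followed across both genomes that encode it in microglia sorted from rat brain. The members were the genes of the series count table whose symbols belong to the Ndufa, Ndufb, Ndufc, Ndufs, Ndufv, Uqcr, Cox4 to Cox8 and Atp5 families, with Sdha, Sdhb, Sdhc, Sdhd and Cyc1, and every gene whose symbol begins with Mt-. This rule gave 102 of 21842 gene symbols, of which 89 are nuclear and 13 are the messenger RNAs of the mitochondrial genome. The nuclear members comprised 37 complex I genes, 7 complex I assembly factor genes (Ndufaf), 4 genes of complex II, 8 of complex III, 15 of complex IV, 15 of complex V and 3 pseudogenes.

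The respiratory chain passes electrons from NADH and succinate through complexes I, II and III and cytochrome c to oxygen at complex IV, and complex V, the ATP synthase, makes ATP from the proton gradient that complexes I, III and IV build. Complex II is encoded by nuclear genes alone, whereas complexes I, III, IV and V combine nuclear subunits with membrane subunits read from mitochondrial DNA. Mitochondrial DNA is transcribed into long precursors that are cut into the individual messenger RNAs, so the level of each one depends on transcription of the genome and on its own stability. Microglia use oxidative phosphorylation in the resting state and are known to shift toward glycolysis when lipopolysaccharide (LPS), a bacterial cell wall component, activates them.

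All samples were from male Wistar (Hsd/Cpb:WU) rats and held cells sorted as CD11b-high, CD45-intermediate and DAPI-negative from whole brain. Rats were exposed to X-rays at 14 Gy, with the irradiated field not named in the labels, or sham-treated, and LPS or PBS was injected into the peritoneum 6 weeks afterwards. The 4 groups were sham with PBS, sham with LPS, irradiated with PBS and irradiated with LPS, with 4 samples each. The labels name no genotype or transgene. The sources used here do not give the age of the rats, the LPS dose or the time from injection to sorting, and no label ties a sample to an animal, so the p-values speak only for the spread among these samples. Bulk RNA of a sort cannot tell fewer cells of one type from less RNA per cell.

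Libraries held 14.3e6 to 62.7e6 counts. The microglial marker list (8 genes, none at 0) summed to 39600 to 43000 CPM (counts scaled to a common library size) in sham rats with PBS, 33800 to 38000 with LPS, 19700 to 24400 in irradiated rats with PBS and 15000 to 19300 with LPS, while 6 border macrophage markers, none at 0, summed to 282 to 321, 414 to 933, 1020 to 1290 and 2890 to 4060 in the same order. The 8 neuronal markers, none at 0, summed to 9.17 to 23.2 in the sham libraries, and were highest in the irradiated libraries numbered 1, at 65.9 with PBS and 98.0 with LPS, against 11.8 to 39.4 in the other irradiated libraries. The 6 neutrophil markers, none at 0, summed to 155 to 1890 in irradiated rats with LPS, highest in library 1, and to 10.5 to 111 elsewhere, and 6 monocyte markers, none at 0, summed to 73.3 to 167 in sham and 381 to 609 in irradiated libraries. The 6 T and NK cell markers summed to 8.13 to 50.7 in sham and 69.3 to 305 in irradiated libraries, 6 cell cycle genes to 24.8 to 54.1 and 55.3 to 72.9, and 5 endothelial markers to 309 to 419 and 134 to 212, with none at 0. The microglial, border macrophage, monocyte, T and NK cell, cell cycle and endothelial sums did not overlap between sham and irradiated libraries, whereas the neuronal and neutrophil sums did. The part of these marker differences in the members' values was not tested.

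The filter on low counts kept 80 of the 89 nuclear members and all 13 mitochondrially encoded ones. Cox7b2, Cox8c and Cox6c-ps1 had no count in any library. Ndufa4l2 had 4 counts in all, Cox6b1-ps1 had 2, Ndufv3-ps1 had 81, and Cox7a1, the heart and muscle form of a complex IV subunit, had 103. Ndufs6, which codes for a subunit of complex I, had 58 counts over the 16 libraries and was not tested. Several small subunits have near-identical pseudogenes in the rat genome, so reads of these genes may have been split between copies or left uncounted, and their low values are uncertain.

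**Figure D1:**
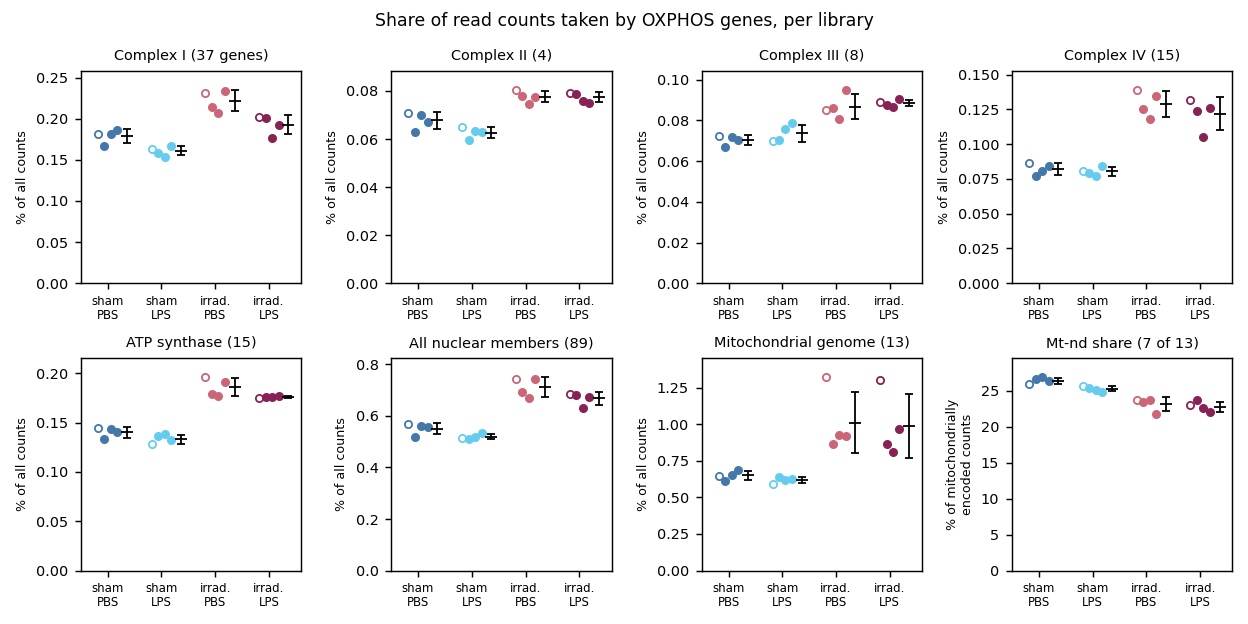
Share of the counts of each library, in percent, taken by the nuclear members of each complex, by all 89 nuclear members and by the 13 mitochondrially encoded members; the last panel gives the 7 Mt-nd genes as a percent of the mitochondrially encoded counts. Points are libraries 1 to 4 from left to right (open: library 1) and bars give the mean and SD (n = 4). Outside complex I, the irradiated libraries lie above every sham library in the nuclear and mitochondrial panels, and below every sham library in the Mt-nd panel. In complex I irradiated LPS library 3, at 0.176%, lies within the range of the sham PBS libraries (0.167% to 0.186%).

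The 13 mitochondrially encoded mRNAs took a larger share of the counts in every irradiated library than in any sham library. With sham irradiation and PBS the share was 0.648%, 0.611%, 0.655% and 0.689% in libraries 1 to 4, and with sham irradiation and LPS it was 0.588%, 0.636%, 0.616% and 0.628%. With irradiation and PBS it was 1.32%, 0.865%, 0.928% and 0.918%, and with irradiation and LPS it was 1.30%, 0.865%, 0.812% and 0.966%. The library numbered 1, which also had the most neuronal marker counts, was highest in both irradiated groups, and the other 6 irradiated libraries were still above all 8 sham libraries.

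The nuclear members showed the same order of groups with less spread. Their share was 0.551% ± 0.0226 (SD, n = 4) in sham rats with PBS, 0.520% ± 0.00938 with LPS, 0.712% ± 0.0381 in irradiated rats with PBS and 0.668% ± 0.0248 with LPS. The lowest irradiated library had 0.632% and the highest sham library 0.567%, so the groups did not overlap. The mitochondrial to nuclear ratio of these counts, on the log2 scale, ran from 0.19 to 0.31 over the sham libraries and from 0.30 to 0.92 over the irradiated ones, with the highest values, 0.83 and 0.92, in the irradiated libraries numbered 1. Shares depend on what else is in a library, and the fold changes below are on counts scaled by TMM factors, which were 0.918 to 0.995 in sham and 0.980 to 1.12 in irradiated libraries.

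Comparisons between the 4 groups were made with edgeR's quasi-likelihood test over 13608 genes, and a member was called when its Benjamini-Hochberg adjusted p over all of them was under 0.05. All fold changes are log2 differences ± SE from that test, and all levels are TMM-scaled CPM.

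Irradiation alone, compared in rats given PBS, went with higher levels of members of both genomes. Of 80 nuclear members 29 rose and 0 fell (36.2% higher), where over all genes 11.5% were higher and 9.91% lower, and the members' median was 0.21 against -0.00 for all genes tested. Of 13 mitochondrially encoded members 5 rose and 0 fell (38.5% higher), with a median of 0.37, and all 13 had a positive fold change. Without both irradiated libraries numbered 1 the counts were 22 and 0 nuclear and 5 and 0 mitochondrially encoded members. The groups did not overlap for 36 nuclear members that were higher and 2 that were lower, and for 8 mitochondrially encoded members that were higher, where 13.9% and 12.9% of all genes did not overlap in these directions.

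The called mitochondrial mRNAs coded for subunits of complexes IV, V and III. Mt-co1, the catalytic subunit of cytochrome c oxidase, was at 921, 874, 902 and 960 CPM in sham rats and at 1860, 1220, 1300 and 1370 CPM in irradiated rats. All irradiated libraries were above all sham libraries, and library 1 was the highest. Mt-co1 rose by 0.65 ± 0.16 (adjusted p = 0.00549). Mt-co3, another core subunit of the same enzyme, was at 515, 501, 510 and 559 CPM in sham rats and 1020, 742, 822 and 778 CPM in irradiated rats, again without overlap, and rose by 0.69 ± 0.13 (adjusted p = 0.00111). Mt-co2, which accepts electrons from cytochrome c, rose by 0.49 ± 0.12, and Mt-atp6, the proton channel subunit of the ATP synthase, by 0.51 ± 0.12. Mt-cyb, the cytochrome b of complex III, rose by 0.40 ± 0.12 (adjusted p = 0.0249), a call lost without irradiated PBS library 1 (0.11), sham PBS library 1 (0.0587) or sham PBS library 2 (0.0763). Mt-atp8, a small ATP synthase subunit, had a fold change of 0.54 ± 0.26 that was not called.

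Of the 7 mitochondrially encoded complex I mRNAs 0 were called in edgeR with PBS, 3 had an unadjusted p under 0.05, and their fold changes ran from 0.21 to 0.37. Mt-nd1 passed without irradiated LPS library 1 (adjusted p = 0.0284). Mt-nd2 was at 432, 420, 474 and 470 CPM in sham rats and at 756, 459, 499 and 457 CPM in irradiated rats. Irradiated libraries 1 and 3 were above the sham range and libraries 2 and 4 within it, and the fold change of 0.27 ± 0.17 was not called (adjusted p = 0.29). As a share of all mitochondrially encoded counts, the 7 Mt-nd mRNAs took 25.9% to 26.9% in sham rats with PBS, 24.9% to 25.7% in sham rats with LPS, 21.8% to 23.8% in irradiated rats with PBS and 22.1% to 23.7% in irradiated rats with LPS. Every irradiated library was below every sham library in this share, including both libraries numbered 1, which were at 23.8% with PBS and 23.0% with LPS.

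**Figure D2:**
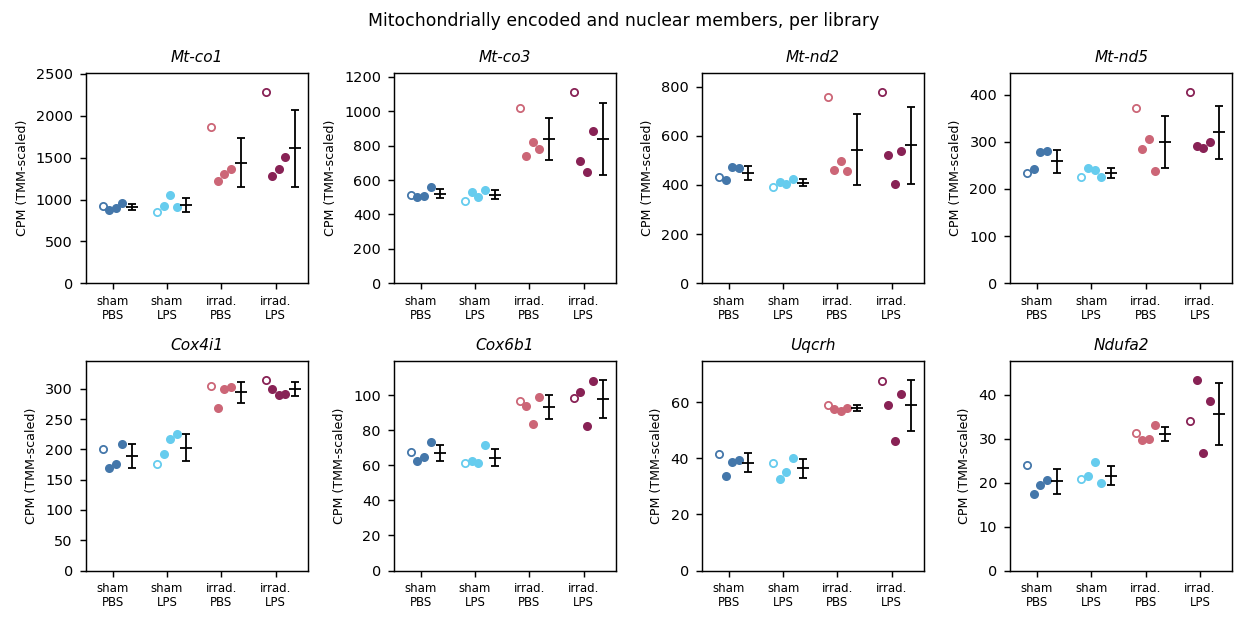
CPM (TMM-scaled) per library of 4 mitochondrially encoded and 4 nuclear members in the 4 groups; points are libraries 1 to 4 from left to right (open: library 1), and bars give mean and SD (n = 4). Mt-co1, Cox4i1 and Uqcrh are higher in every irradiated than in every sham library, and Mt-nd2 of irradiated PBS library 1, at 756 CPM, stands apart from the other 3 of its group.

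The largest shares of nuclear members called with irradiation alone were in complex IV and the ATP synthase. In complex IV, which reduces oxygen to water, 8 of 12 tested members rose and 0 fell, with a median of 0.43. Cox4i1, the ubiquitous form of the subunit that binds ATP as a regulator, was at 201, 169, 175 and 209 CPM in sham rats and at 305, 268, 299 and 303 CPM in irradiated rats. The groups did not overlap, and Cox4i1 rose by 0.64 ± 0.09 (1.56-fold, adjusted p = 4.53e-05). Cox7a2l, which helps to join complexes III and IV into supercomplexes, rose by 0.52 ± 0.08, from 123 ± 8.61 to 176 ± 9.97 CPM. Cox6a1, Cox6b1 and Cox5a, further nuclear subunits of this complex, rose by 0.51 ± 0.09, 0.47 ± 0.09 and 0.43 ± 0.11. Ndufa4, now known as a complex IV subunit but counted here with complex I by its symbol, was not called. It was at 60.9 ± 1.74 CPM in sham and 63.8 ± 3.23 CPM in irradiated rats.

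In the ATP synthase 9 of 15 members rose and 0 fell, with a median of 0.34. Atp5f1b, the catalytic beta subunit, was at 265, 268, 277 and 275 CPM in sham rats and at 343, 332, 333 and 323 CPM in irradiated rats, without overlap, and rose by 0.30 ± 0.07 (adjusted p = 0.0068). Atp5mf and Atp5mg, small subunits of the membrane part, rose by 0.50 ± 0.13 and 0.42 ± 0.11. The c subunits of the rotor ring are made from 3 genes, of which Atp5mc3 rose by 0.37 ± 0.08 (adjusted p = 0.00436), Atp5mc2 by 0.25 ± 0.08 (adjusted p = 0.0247), and Atp5mc1 had only 8 to 17 counts per library in these groups. Atp5mc1 stood on 2 Ensembl gene IDs, and the one used here held 249 of its 478 counts over all libraries. The call of Atp5mc2 was lost without sham PBS library 2 (adjusted p = 0.0971), or without irradiated PBS library 1 (0.0644), 3 (0.0515) or 4 (0.0522). Atp5f1a, the alpha subunit, had 0.13 ± 0.09 and was not called.

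Complexes I, II and III held fewer calls. In complex I, which takes electrons from NADH, 10 of 34 tested members rose and 0 fell, with a median of 0.16. Ndufa2, an accessory subunit, was at 24, 17.3, 19.4 and 20.5 CPM in sham rats and at 31.2, 29.6, 30.0 and 33.1 CPM in irradiated rats, and rose by 0.61 ± 0.14 (adjusted p = 0.00434). Ndufb11, an accessory subunit of the membrane arm, rose by 0.46 ± 0.11. The core subunits Ndufs1 and Ndufv1, which carry iron-sulphur clusters, had fold changes of -0.15 ± 0.10 and 0.05 ± 0.09 and were not called. Of the 7 Ndufaf genes 0 were called in edgeR, and 1 had an unadjusted p under 0.05. Complex II, the succinate dehydrogenase, had 0 of 4 called and 0 at an unadjusted p under 0.05, with Sdha, its flavoprotein, at 233 ± 12.6 CPM in sham and 213 ± 10.7 CPM in irradiated rats (-0.13 ± 0.07, adjusted p = 0.206). In complex III 2 of 8 members rose and 0 fell, and both code for small subunits. Uqcrh, the hinge subunit near cytochrome c1, was at 41.6, 33.9, 38.8 and 39.6 CPM in sham rats and at 59.2, 57.5, 57.1 and 58.1 CPM in irradiated rats, and rose by 0.59 ± 0.11 (adjusted p = 0.000853). Uqcrq rose by 0.46 ± 0.11, whereas Cyc1, cytochrome c1 itself, had -0.03 ± 0.08 and was not called.

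Promoters of the nuclear members were read from RefSeq (GRCr8), from 250 bases before to 50 bases after the transcription start, because motifs of 2 factors are classically tied to these genes. The motifs were GCGCA, any 1 base and GCGC in a row for nuclear respiratory factor 1 and CCGGAAG for ETS factors such as nuclear respiratory factor 2, on both strands. A window was found for 76 of the 86 nuclear members that are not pseudogenes. The first motif was in 15 of them (19.7%) and in 6.19% of 18999 protein-coding genes, the second in 20 (26.3%) and in 11.6%, and at least one of them in 34 (44.7%) and in 16.5%. By complex, at least one was in 14 of 34 complex I genes, 3 of 4 of complex II, 4 of 6 of complex III, 2 of 12 of complex IV and 8 of 14 of complex V. Complex IV, where 8 of 12 tested members rose with irradiation alone, had matches in 16.7% of its windows, and protein-coding genes at large in 16.5%. Its 12 windows are not those of its 12 tested members. Cox6a1, which rose, and Cox4i2 had no window, and some windows belong to members that were not tested. Among members that rose with irradiation alone 14 of 26 windows had a match (53.8%), and among those tested and not called 19 of 45 (42.2%). A match is a run of letters and not a measured binding site, and the count files are on another build, mRatBN7.2.

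The 250 bases before the start are given for 5 members with different responses, chosen after their values were seen. Uqcrh and Uqcrq rose with irradiation in both comparisons, Atp5mc2 rose with irradiation and fell with LPS, Ndufaf4 rose with LPS in irradiated rats, and Sdha was not called in any comparison. Capitals mark motif matches, and the sequences are written 5′ to 3′ on the strand of the gene. They are Uqcrh at chr5:134790883-134791132 on the minus strand, Uqcrq at chr10:38089979-38090228 on the minus strand, Atp5mc2 at chr7:135678219-135678468 on the minus strand, Ndufaf4 at chr5:43401545-43401794 on the plus strand and Sdha at chr1:30764303-30764552 on the plus strand. The ETS matches begin 83 bases before the start in Uqcrh and 22 in Uqcrq. Matches of nuclear respiratory factor 1 begin 56 bases before the start in Atp5mc2, 158 in Ndufaf4 and 89, 46 and 1 in Sdha, the last running past the printed end.
Uqcrh: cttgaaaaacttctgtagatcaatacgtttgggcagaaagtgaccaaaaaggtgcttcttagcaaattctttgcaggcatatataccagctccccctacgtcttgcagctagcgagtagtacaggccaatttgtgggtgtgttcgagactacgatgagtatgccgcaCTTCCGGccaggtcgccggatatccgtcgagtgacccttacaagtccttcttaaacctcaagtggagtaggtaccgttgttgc
Uqcrq: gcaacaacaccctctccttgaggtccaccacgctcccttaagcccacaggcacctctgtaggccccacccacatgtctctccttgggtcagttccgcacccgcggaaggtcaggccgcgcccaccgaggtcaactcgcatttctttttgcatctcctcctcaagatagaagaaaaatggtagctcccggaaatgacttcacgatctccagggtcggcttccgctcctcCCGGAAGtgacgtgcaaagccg
Atp5mc2: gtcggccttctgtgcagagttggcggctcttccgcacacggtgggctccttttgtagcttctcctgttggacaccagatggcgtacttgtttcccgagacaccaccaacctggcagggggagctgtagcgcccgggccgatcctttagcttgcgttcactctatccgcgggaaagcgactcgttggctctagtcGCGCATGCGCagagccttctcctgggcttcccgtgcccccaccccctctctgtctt
Ndufaf4: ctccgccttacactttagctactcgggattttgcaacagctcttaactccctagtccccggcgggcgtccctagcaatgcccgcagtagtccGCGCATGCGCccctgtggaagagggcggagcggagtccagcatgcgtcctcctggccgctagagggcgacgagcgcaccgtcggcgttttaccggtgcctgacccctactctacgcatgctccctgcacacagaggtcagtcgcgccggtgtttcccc
Sdha: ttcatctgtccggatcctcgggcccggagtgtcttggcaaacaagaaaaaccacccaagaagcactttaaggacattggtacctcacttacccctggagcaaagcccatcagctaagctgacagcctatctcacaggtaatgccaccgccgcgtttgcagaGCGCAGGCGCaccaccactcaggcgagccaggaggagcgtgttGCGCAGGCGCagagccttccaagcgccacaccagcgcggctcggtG

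The number of calls with irradiation alone moved with single libraries and with scaling. Without sham PBS library 2 the nuclear count was 16, and without irradiated PBS library 1 it was 18, with the median over the single-library omissions between 0.19 and 0.24. With library totals in place of TMM factors 48 nuclear and 8 mitochondrially encoded members rose, and that scaling moved the median of all genes from -0.00 to 0.15.

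**Figure D3:**
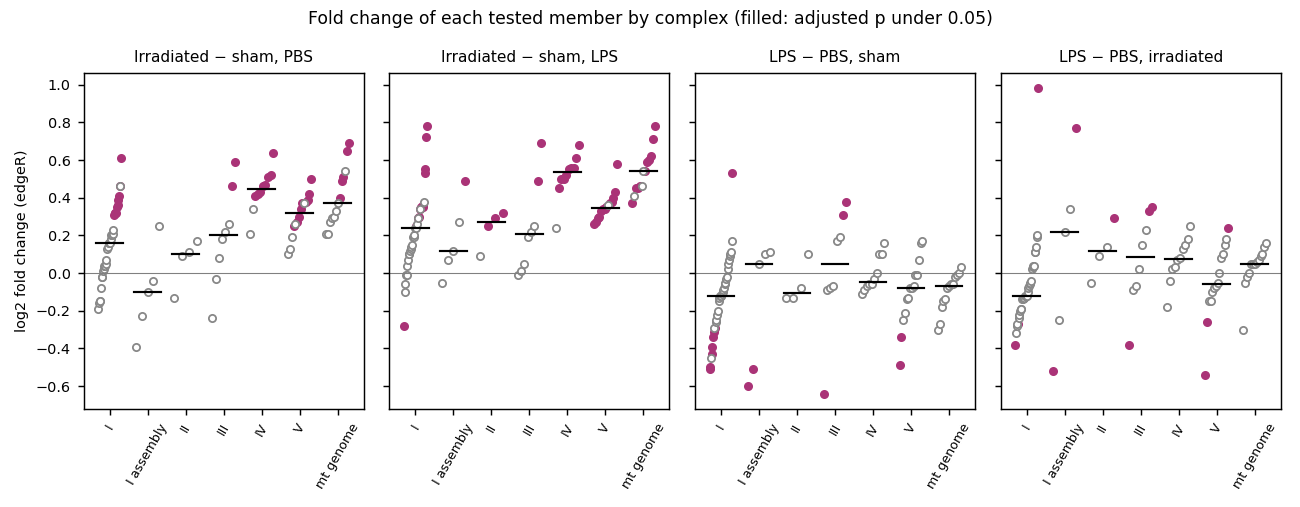
log2 fold change (edgeR) of 75 nuclear members whose mean log2 CPM was 3 or more and of the 13 mitochondrially encoded members, by complex, in 4 comparisons; filled points had an adjusted p under 0.05 and lines mark the median of the points drawn. Both irradiation panels lie mostly above 0, with complex IV, complex V and the mitochondrial genome highest, and the LPS panels lie around 0.

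Irradiation was also compared among rats given LPS. There 41 of 80 nuclear members rose and 1 fell (51.2% higher), with a median of 0.29 (all genes: 15.1% higher, 12.6% lower, median 0.01), and 10 of 13 mitochondrially encoded members rose and 0 fell, with a median of 0.54. The groups did not overlap for 32 nuclear members that were higher and 0 that were lower, and for 9 mitochondrially encoded members that were higher, against 15.0% and 11.6% of all genes. This comparison has no sample in common with the one in rats given PBS, and 27 nuclear members rose in both, which is 93.1% of the 29 and 65.9% of the 41. Both comparisons come from one fit with a shared estimate of the spread, and the matching overlap over all genes was not counted. All 5 mitochondrially encoded members called with PBS were among the 10 called with LPS. Without both irradiated libraries numbered 1 the counts were 37 and 0 nuclear and 10 and 0 mitochondrially encoded members. Without irradiated LPS library 1 alone 6 mitochondrially encoded members were called. Leaving out 4 libraries picked earlier for neural transcripts (irradiated PBS 1, irradiated LPS 1, sham LPS 1 and sham LPS 2), which leaves 2 sham libraries with LPS, gave 10 and 1 nuclear and 5 and 0 mitochondrially encoded calls. By the neuronal markers used here, the retained irradiated libraries numbered 4 held more (39.4 with PBS and 26.8 with LPS) than the 2 omitted sham libraries (22.9 and 23.2). The 7 oligodendrocyte markers went the other way, at 697 and 779 CPM in these sham libraries and 502 and 497 in those irradiated ones. So did the 7 astrocyte markers, at 488 and 627 CPM against 380 and 188. The retained sham LPS libraries 3 and 4 held 753 and 627 CPM of oligodendrocyte and 269 and 467 CPM of astrocyte markers. In the sham PBS libraries, all retained, these sums ran from 646 to 878 and from 551 to 950 CPM. The numbers of calls do not test whether the response to irradiation differs between PBS and LPS, which is the interaction term given with the LPS comparisons.

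Mt-co1 was at 854, 923, 1050 and 912 CPM in sham rats and at 2280, 1280, 1370 and 1510 CPM in irradiated rats, all given LPS. It rose by 0.78 ± 0.16 (adjusted p = 0.00096), and the groups did not overlap. Mt-co3 rose by 0.71 ± 0.13, Mt-atp6 by 0.62 ± 0.12, Mt-co2 by 0.60 ± 0.12 and Mt-cyb by 0.54 ± 0.12. Of the Mt-nd mRNAs 5 of 7 were called, from Mt-nd4l at 0.37 ± 0.13 to Mt-nd6, the subunit read from the light strand, at 0.59 ± 0.18. Mt-nd1, Mt-nd4l, Mt-nd5 and Mt-nd6 lost their calls without irradiated LPS library 1 (adjusted p = 0.0612, 0.148, 0.0506 and 0.0532), and Mt-nd4l also without sham LPS libraries 2 (0.0758), 3 (0.0883) or 4 (0.0664) or irradiated LPS libraries 2 (0.0775) or 4 (0.0649). The 3 that were not called were Mt-nd2 (0.46 ± 0.17), Mt-nd3 (0.41 ± 0.17) and Mt-atp8 (0.54 ± 0.26). All 3 passed without irradiated LPS library 3 (adjusted p = 0.0107, 0.00159 and 0.0343), and Mt-nd2 also without irradiated PBS library 1 (0.0171).

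In complex IV 9 of 12 tested members rose and 0 fell, with a median of 0.51. Cox4i1 was at 176, 193, 217 and 225 CPM in sham and 315, 299, 289 and 292 CPM in irradiated rats, without overlap, and rose by 0.56 ± 0.09 (adjusted p = 0.000108). Cox5a, a subunit that binds thyroid hormone metabolites, rose by 0.68 ± 0.11 and Cox6b1, which faces the intermembrane space, by 0.61 ± 0.09. In the ATP synthase 13 of 15 rose and 0 fell, with a median of 0.35, among them Atp5f1b (0.37 ± 0.07), Atp5mc3 (0.38 ± 0.08) and Atp5mk (0.58 ± 0.15). Atp5mf also rose, a call lost without irradiated LPS library 1 (adjusted p = 0.0513), 2 (0.0735) or 4 (0.0674) or sham LPS library 3 (0.0557). Atp5f1a rose by 0.29 ± 0.09 (adjusted p = 0.0156), which was lost without sham LPS library 1 (0.0573) or irradiated LPS library 3 (0.0622).

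In complex I 12 of 34 rose and 1 fell. Ndufs5 and Ndufa2, accessory subunits, rose by 0.78 ± 0.18 and 0.72 ± 0.14. Of the 7 Ndufaf genes 2 rose and 0 fell. One was Ndufaf5, a call lost without sham LPS library 2 (adjusted p = 0.106) or 4 (0.0967) or irradiated LPS library 2 (0.0683) or 4 (0.121). Ndufc2, an accessory subunit of the membrane arm, fell by 0.28 ± 0.09 (adjusted p = 0.0227), with libraries at 79.6, 74.0, 86.0 and 90.8 CPM in sham rats and at 65.4, 77.3, 65.5 and 63.9 CPM in irradiated rats. Library 2 of the irradiated group overlapped the sham range, and the call was lost without irradiated LPS library 1 (0.0625), 3 (0.0557) or 4 (0.0718) or sham LPS library 3 (0.0548) or 4 (0.0806).

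In complex II 3 of 4 members rose and 0 fell. Sdhb, the iron-sulphur subunit, was at 201, 191, 221 and 211 CPM in sham and 270, 270, 244 and 240 CPM in irradiated rats, without overlap, and rose by 0.32 ± 0.07 (adjusted p = 0.00248). Sdhc, a membrane anchor, rose by 0.29 ± 0.09 (adjusted p = 0.015), which was lost without sham LPS library 2 (0.0574). Sdhd, the other anchor, rose by 0.25 ± 0.08 (adjusted p = 0.0256), which was lost without sham LPS library 2 (0.0927) or irradiated LPS library 2 (0.0711) or 3 (0.0501). Sdha was at 220 ± 10.2 and 234 ± 11.3 CPM and was not called. In complex III Uqcrh (0.69 ± 0.11) and Uqcrq (0.49 ± 0.11) rose again, and 0 of the other 6 members were called. Uqcrc1 passed without irradiated LPS library 1 (adjusted p = 0.0479) or sham LPS library 4 (0.0235).

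Of the nuclear members 17 were called with LPS in sham rats and 13 in irradiated rats, and 0 mitochondrially encoded ones were called. In sham rats 5 nuclear members rose and 12 fell of 80, with a median of -0.08, where over all genes 15.2% were higher and 14.5% lower with a median of -0.01. In irradiated rats 7 rose and 6 fell, with a median of -0.04, where over all genes 17.0% were higher and 14.5% lower with a median of -0.02. The shares of members called higher, 6.25% and 8.75%, were below those of all genes, and the shares called lower were near that of all genes in sham rats, at 15.0%, and below it in irradiated rats, at 7.5%. Of the 13 mitochondrially encoded members 0 were called in either comparison by edgeR or DESeq2, and 0 had an unadjusted p under 0.05. Their fold changes ran from -0.30 to 0.03 in sham rats and from -0.30 to 0.16 in irradiated rats. With library totals in place of TMM factors the calls in irradiated rats were 4 higher and 16 lower, and that scaling moved the median of all genes there from -0.02 to -0.14. The groups did not overlap for 4 higher and 11 lower nuclear members in sham rats (all genes: 14.6% and 15.3%), and for 10 higher and 8 lower in irradiated rats (17.5% and 14.8%). The LPS comparisons in sham and in irradiated rats share no sample. Of the 5 and 7 nuclear members that rose, 4 were the same (80.0% and 57.1%), and of the 12 and 6 that fell, 6 were the same (50.0% of the 12 and all of the 6). For LPS, too, the comparisons come from that one fit, and the overlap over all genes was not counted.

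In complex III 2 members rose and 1 fell with LPS in each of the comparisons. Cyc1, cytochrome c1, was at 101, 89.7, 113 and 102 CPM with PBS and at 115, 123, 132 and 133 CPM with LPS in sham rats, without overlap, and rose by 0.31 ± 0.08 (adjusted p = 0.00823). In irradiated rats it was at 98.1, 99.5, 93.3 and 106 CPM with PBS and at 124, 117, 132 and 127 CPM with LPS, again without overlap, and rose by 0.33 ± 0.08 (adjusted p = 0.00423). Uqcrfs1, the Rieske iron-sulphur protein that passes electrons to Cyc1, rose by 0.38 ± 0.10 in sham rats and by 0.35 ± 0.10 in irradiated rats. The second of these calls was lost without irradiated PBS library 1 (adjusted p = 0.054) or irradiated LPS library 3 (0.05, not under the threshold). Uqcr10, a small subunit of the same complex, was at 112, 97.6, 87.6 and 76.1 CPM with PBS and at 53.7, 57.3, 66.5 and 62.8 CPM with LPS in sham rats, and fell by 0.64 ± 0.14 (adjusted p = 0.00232). In irradiated rats it fell by 0.38 ± 0.14 (adjusted p = 0.048), a call that was also lost when any of 12 single libraries was left out, with values up to 0.192 without irradiated PBS library 4. Uqcrc1, a core protein of the complex, had 0.19 ± 0.09 and 0.23 ± 0.09 and was not called. It passed in sham rats without sham LPS library 1 (adjusted p = 0.0404). In irradiated rats it passed without sham LPS library 1 (0.0372) or 4 (0.0377) or irradiated LPS library 1 (0.0332). In complex II 0 of 4 members were called with LPS in sham rats, and 1 rose in irradiated rats. The riser was Sdhc, a call lost without irradiated PBS library 2 (adjusted p = 0.0596).

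In complex I 1 of 34 members rose and 7 fell with LPS in sham rats, and 1 rose and 2 fell in irradiated rats. Ndufa3, an accessory subunit, was at 8.70, 9.15, 9.76 and 12.3 CPM with PBS and at 18.2, 19.2, 22.4 and 19.0 CPM with LPS in irradiated rats, without overlap, and rose by 0.98 ± 0.17 (1.97-fold, adjusted p = 0.000253). In sham rats the same gene rose by 0.53 ± 0.17 (adjusted p = 0.0272), with libraries that overlapped, and that call was lost without sham LPS library 1 (0.0683) or 4 (0.0673) or sham PBS library 3 (0.0943) or 4 (0.0594). Ndufb10, which carries disulphide bonds at the intermembrane face, fell by 0.39 ± 0.10 in sham and by 0.38 ± 0.10 in irradiated rats. Ndufb4, an accessory subunit, fell by 0.51 ± 0.12 in sham rats, from 38.6 ± 3.63 to 27.2 ± 3.22 CPM, and had -0.20 ± 0.12 in irradiated rats. Ndufs5 also fell in sham rats. Its call was lost when any single sham LPS library was left out, among others, with values up to 0.136 without sham PBS library 1. Ndufa8 fell in irradiated rats, a call lost without irradiated PBS library 1 (0.0636), 3 (0.0783) or 4 (0.0667) or irradiated LPS library 4 (0.114). Among the assembly factors, Ndufaf7, a mitochondrial methyltransferase, fell by 0.51 ± 0.13 in sham and by 0.52 ± 0.13 in irradiated rats. Ndufaf6 fell by 0.60 ± 0.17 in sham rats, and had -0.25 ± 0.17 in irradiated rats. Ndufaf4 was at 22.0, 24.4, 22.1 and 23.9 CPM with PBS and at 27.8, 38.7, 42.7 and 48 CPM with LPS in irradiated rats, without overlap, and rose by 0.77 ± 0.15 (adjusted p = 0.000521).

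In the ATP synthase the inhibitor gene fell with LPS in both backgrounds. Atp5if1 codes for the protein that blocks ATP hydrolysis when the proton gradient collapses. It was at 70.2, 61.9, 66.5 and 68.4 CPM with PBS and at 50.4, 43.7, 48.2 and 47.4 CPM with LPS in sham rats, and at 96.9, 85.9, 78.7 and 86.9 CPM with PBS and at 64.6, 68.3, 44.0 and 62.7 CPM with LPS in irradiated rats. LPS libraries were below PBS libraries without overlap in both. Atp5if1 fell by 0.49 ± 0.12 in sham rats (adjusted p = 0.00338) and by 0.54 ± 0.11 in irradiated rats (adjusted p = 0.00139). Irradiation went the other way for this gene, with 0.39 ± 0.11 under PBS and 0.34 ± 0.11 under LPS, the first lost without irradiated PBS library 1 (0.0768) or sham PBS library 2 (0.0684) or 3 (0.0506) and the second without any of 6 single libraries, with values up to 0.135 without irradiated LPS library 2. Atp5mc2 fell by 0.34 ± 0.08 and 0.26 ± 0.08 with LPS, and Atp5f1b rose by 0.24 ± 0.07 in irradiated rats, a call lost without irradiated LPS library 3 (0.0659).

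Complex IV had calls with LPS only among isoforms that were almost not counted. Cox6a2, the heart and muscle form, had 2, 3, 4 and 3 counts with PBS and 17, 40, 30 and 25 counts with LPS in sham rats, and rose by 3.34 ± 0.67 (adjusted p = 0.00105). In irradiated rats it had 2, 5, 7 and 1 counts with PBS and 16, 102, 13 and 64 counts with LPS, and rose by 2.57 ± 0.65 (adjusted p = 0.00523). Cox4i2, the form known from lung and from oxygen-sensing cells, had 4, 2, 0 and 2 counts with PBS and 18, 13, 22 and 18 counts with LPS in sham rats, and rose by 3.19 ± 0.88 (adjusted p = 0.00991). In irradiated rats its fold change was 2.18 ± 0.86 and was not called (adjusted p = 0.0621). That call was gained without irradiated PBS library 1 (0.0238) or sham PBS library 3 (0.0487). Neither gene exceeded 2.21 CPM in any library, while the ubiquitous forms Cox6a1 and Cox4i1 had fold changes between -0.03 and 0.10 with LPS and were not called.

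**Figure D4:**
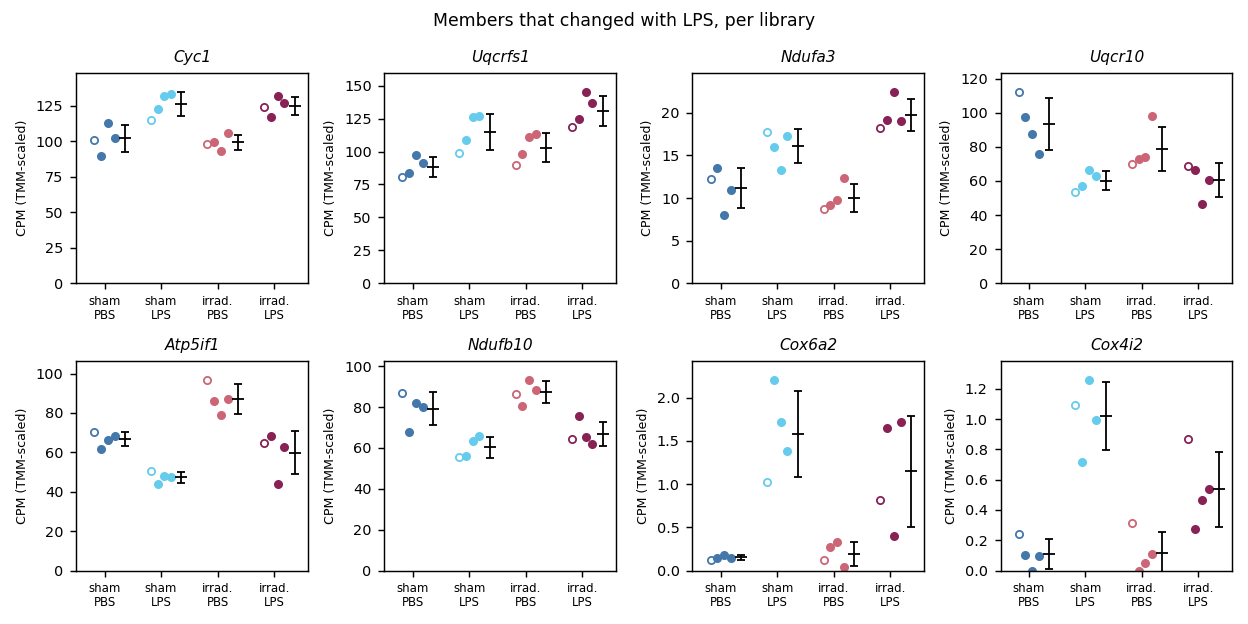
CPM (TMM-scaled) per library of 8 members called with LPS in at least one comparison; points are libraries 1 to 4 from left to right (open: library 1), and bars give mean and SD (n = 4). Cyc1, Uqcrfs1 and Ndufa3 are higher with LPS, Uqcr10, Atp5if1 and Ndufb10 are lower, and Cox6a2 and Cox4i2 stay at or under 2.21 CPM.

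The response to LPS was not found to differ between irradiated and sham rats for any member. In the interaction term, the LPS effect in irradiated rats minus that in sham rats, 0 of 80 nuclear and 0 of 13 mitochondrially encoded members were called by edgeR, and the same holds for DESeq2, where over all genes edgeR called 0.61% higher and 0.647% lower. At an unadjusted p under 0.05 there were 5 nuclear and 0 mitochondrially encoded members. The smallest p belonged to Ndufaf4 (0.66 ± 0.21, adjusted p = 0.150), an assembly factor of complex I, which passed without irradiated LPS library 1 (0.80 ± 0.17, adjusted p = 0.0354). Sdha and Sdhb each had 0.22 ± 0.10 (adjusted p = 0.379). The standard errors of this term ran from 0.10 to 0.37 over the 88 members with a mean log2 CPM of 3 or more.

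Genes that build, feed and regulate the chain were read from lists kept outside the members. Irradiation with PBS moved few of them, where over all genes 11.5% were higher and 9.91% lower. Of 34 tested assembly factors of the complexes 0 rose and 2 fell, of 18 genes of the tricarboxylic acid cycle 0 rose and 1 fell, of 29 genes of mitochondrial DNA maintenance and expression 0 rose and 2 fell, of 31 import genes 1 rose and 2 fell, and of 15 carrier and uncoupling genes 0 rose and 1 fell. In these lists at most 3.23% were higher and 5.56% to 6.9% lower, below the shares of all genes. Of 73 mitochondrial ribosome genes 9 rose and 0 fell, near the background share of 11.5%, with Mrps6 at 1.04. The fallen genes included Idh2, the NADP-linked isocitrate dehydrogenase of mitochondria (-0.39), Nnt, the transhydrogenase that makes NADPH from the proton gradient (-0.40), Cox15, which makes heme a for complex IV (-0.29), and Sdhaf2, which loads the flavin into Sdha (-0.36). Of 15 regulators of oxidative phosphorylation 2 rose (13.3%, near the share of all genes) and 1 fell (6.67%, below it). The one that fell was Gabpb1, a subunit of the ETS factor known as nuclear respiratory factor 2 (-0.67, adjusted p = 0.000807). Gabpb1 was at 46.3 ± 4.15 CPM in sham and 29.0 ± 2.70 CPM in irradiated rats. Ppargc1b, a coactivator of mitochondrial genes, rose by 3.15 from 0.511 ± 0.420 to 4.60 ± 2.37 CPM (adjusted p = 0.00994). The other that rose was Myc, by 0.69 from 69.0 ± 13.4 to 111 ± 11.3 CPM (adjusted p = 0.0134).

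The same lists were read for LPS, where 15.2% of all genes were higher and 14.5% lower in sham rats and 17.0% and 14.5% in irradiated rats. In sham rats, of 15 regulators 7 rose and 0 fell. The smallest p belonged to Myc (1.81). Others that rose were Pprc1, a coactivator related to PGC-1 (1.19), Nrf1, the nuclear respiratory factor (0.67), and Hif1a, the oxygen-regulated factor (0.63). Of 34 assembly factors 3 rose and 10 fell, with Tmem126b, of the complex I assembly machinery, at -0.91 and Sco1, a copper chaperone of complex IV, at 0.77. Of 73 mitochondrial ribosome genes 5 rose and 12 fell, of 31 import genes 10 rose and 3 fell, of 18 cycle genes 4 rose and 1 fell, and of 29 mitochondrial DNA expression genes 5 rose and 4 fell. The shares of ribosome genes that fell (16.4%) and of DNA expression genes that rose (17.2%) or fell (13.8%) were near those of all genes. Cycs, the cytochrome c that Cyc1 reduces, was at 52.3, 48.9, 55.6 and 50.5 CPM with PBS and at 62.4, 70.6, 102 and 84.6 CPM with LPS in sham rats, and rose by 0.62 (adjusted p = 0.00109). Slc25a5, an ADP/ATP carrier of the inner membrane, rose by 0.63, and Nnt fell by 0.60. These genes were picked from 15 carrier and uncoupling genes, of which 2 rose and 2 fell (13.3% each), near the shares of all genes. In irradiated rats LPS gave 6 regulators higher and 0 lower, 4 and 3 assembly factors, and 12 and 2 import genes. Of the carrier genes 2 rose and 1 fell there, and Cycs rose by 1.02 (adjusted p = 6.8e-06).

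Of 6 listed mitochondrial genes linked to LPS responses, 3 rose and 0 fell with LPS in sham rats, and 4 rose and 0 fell in irradiated rats. Ucp2 and Lonp1 were not called in either, and Cmpk2 was called in irradiated rats alone, with an interaction term that was not called (1.54, adjusted p = 0.104). Sod2, the superoxide dismutase of the matrix, was at 70.7 ± 6.98 CPM in sham rats with PBS, 322 ± 78.3 with LPS, 144 ± 12.7 in irradiated rats with PBS and 2020 ± 429 with LPS. Its interaction term was called (1.62, adjusted p = 0.00147), as was that of Hif1a (0.77, adjusted p = 0.00392), while 0 members of the chain were. Acod1, which makes itaconate, an inhibitor of succinate dehydrogenase, was at 0 in all 4 sham PBS libraries and at 0.910, 4.69, 3.67 and 2.42 CPM in sham rats with LPS. It was at 0.870, 0.444, 0.0961 and 0.255 CPM in irradiated rats with PBS and at 44.1, 25.3, 27.4 and 58.1 CPM with LPS. Its interaction term was not called (adjusted p = 0.697), and with 1 group at 0 the fitted size of that term is not given.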

How the data were processed

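Bulk RNA was measured in 16 samples of sorted microglia in 4 groups of 4. The deposited values are counts of reads per gene, which the authors made with FastQC 0.11.9, fastp 0.23.2 and HTSeq 2.0.2 on the build mRatBN7.2, per the submitters' processing notes. The sources used here do not give the aligner, the annotation or the strand setting. The single-sample tables hold 30560 Ensembl gene IDs, and the series table holds 21842 symbols. Where 6 member symbols stood on several IDs, the ID with the most counts was used. Total counts were 14.3e6 to 62.7e6 per library, and pairs of libraries within a group differed by more than counting noise (chi-square over its degrees of freedom, 19.7 to 83.5).

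Counts were tested with edgeR 4.0.16 in R 4.3.3 (TMM scaling, filterByExpr, robust quasi-likelihood fit of 4 group means over all 16 libraries, 13608 genes, Benjamini-Hochberg adjustment over all of them, threshold 0.05). Alternatives were other scalings, no filter, DESeq2 1.42.0, the compared groups alone, counts summed by symbol, a replicate term and libraries left out. The fitting code was tested on simulated data. The members, the lists of related and marker genes and the alternatives were chosen with earlier results of these data known. Named were a fixed panel (complex II, catalytic and isoform genes, all Mt- genes) and the largest called changes. The latter were the 2 largest in each direction per complex and comparison whose mean log2 CPM was 3 or more. Up to 3 genes of smallest p were also picked per related list. Other names were chosen after their values were seen, and not every gene picked is given in every comparison. Of the panel, Cox6b2, Cox7a2, Cox8a and Cox8b were not analysed here. One item is not reported here.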

Additional observations from a re-analysis of the deposited data

Results flagged for a closer look

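In each group of 4 libraries the highest and lowest library were compared with the nearest other one, for the members and shares named in the report. Of 252 groups of values 16 had a library standing apart by Dixon's criterion. Chance flags about 1 in 20 groups, and no explanation was tested. The values above their groups were the mitochondrially encoded share in irradiated PBS 1 (1.32% of counts), Mt-nd2 in irradiated PBS 1 (756 CPM), Mt-nd5 in irradiated LPS 1 (405 CPM), Ndufb11 in irradiated PBS 1 (62.8 CPM), Cox6b1 in sham LPS 4 (71.4 CPM), Ndufc2 in irradiated LPS 2 (77.3 CPM) and Uqcr10 in irradiated PBS 4 (98.1 CPM). The values below their groups were Atp5mc3 (59.3 CPM), Cox4i1 (268 CPM) and Ndufa8 (94.2 CPM) in irradiated PBS 2, Atp5mf (29.2 CPM), Atp5mk (14.9 CPM) and Ndufb4 (32.2 CPM) in irradiated LPS 3, Ndufa8 in irradiated LPS 4 (74.5 CPM), and Ndufb4 (33.2 CPM) and Sdha (214 CPM) in sham PBS 2.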

How the results depend on the processing

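No value called for a named member changed sign under any alternative run, and members that were not named were not followed one by one. Of the named members called, 10 of 12 stayed under the threshold in every alternative for LPS in sham rats, 17 of 20 for irradiation with PBS, 7 of 13 for LPS in irradiated rats and 13 of 31 for irradiation with LPS. Of the named members not called, 2 of 30, 10 of 22, 3 of 29 and 5 of 13 passed in some alternative, in the same order. With library totals alone, irradiation with PBS called 48 nuclear (median 0.37) and 8 mitochondrially encoded members, irradiation with LPS had a nuclear median of 0.37, LPS in irradiated rats called 20 nuclear members (median -0.16), and the nuclear median of the difference between LPS responses was -0.01. Without the 4 libraries picked earlier for neural transcripts, irradiation called 19 nuclear members with PBS and 11 nuclear and 5 mitochondrially encoded members with LPS. With single libraries left out, calls for irradiation with PBS ranged from 16 to 31 nuclear and from 4 to 6 mitochondrially encoded members, those for irradiation with LPS from 32 to 43 and from 6 to 13, those for LPS from 13 to 18 in sham and from 11 to 15 in irradiated rats, and those for the difference between LPS responses from 0 to 1. The causes were not tested, and where libraries were left out the fit also had fewer samples. The labels do not say what a replicate number marks, and it was not taken as a pairing in the main fit. Of 24 same-numbered pairs 10 correlated above 0.1 (r from -0.0887 to 0.405). In 17 of 24 cases, each a library set against the 4 of another group, the best correlation was with its own number. That is a sign of deviations shared by number, seen in the data and not given by the design, which the main fit does not model. With the replicate block the calls, higher and lower, were 5 and 12, 30 and 0, 9 and 6, and 43 and 1 for nuclear members in the order LPS in sham rats, irradiation with PBS, LPS in irradiated rats, irradiation with LPS, and 0, 5, 0 and 11 for mitochondrially encoded ones. Members under 5 CPM and the unequal depth of the libraries limit what could be seen at low levels.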
